A study of Mus musculus with 6 samples.

Results

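The 10 genes described here code for proteins that hold lung endothelial cells (EC) to each other and to their matrix. Cdh5, Pecam1, Cldn5, Esam and Tjp1 are genes of endothelial cell-cell junctions, Cd47 codes for an integrin-associated membrane protein, and Itga1, Itgb1, Itga6 and Itgav are integrin subunits. A differentially methylated region (DMR) was counted for a gene when its midpoint fell inside the gene as annotated by RefSeq in mm10, or within 10 kb of either end. By this rule, 58 of the 18,333 DMRs listed for the transition from infant to young adult lung EC belonged to these genes, and 8 of the 10 genes had at least 1. The rule that assigned DMRs to genes used position alone and no methylation value. The genes themselves were chosen with earlier results of these data known, so their shares below are descriptions of a chosen set. The mice were of the C57BL/6N strain, described in the methods as female, and no treatment or transgene is named for either age group. There were 3 infant samples, from animals aged 8 to 10 days, and 3 young adult samples, from animals aged 8 to 12 weeks. EC were sorted from lung as CD31+ and CD34+ cells, negative for PTPRC, LYVE1, LY76, PDPN and propidium iodide, so that Pecam1, which codes for CD31, was also a gate of the sort. Their DNA was sequenced by T-WGBS, a bisulfite method for small DNA amounts in which a transposase fragments the genome before the unmethylated cytosines are converted. A DMR list holds no expression values, so the labelled cell type could not be checked against its marker genes.

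VE-cadherin (Cdh5) forms the adherens junctions of the endothelium and is bound inside the cell by catenins, while PECAM-1 is an immunoglobulin-type receptor that binds its own kind on the neighbouring cell. Claudin-5 (Cldn5) and ZO-1 (Tjp1) belong to the tight junctions, which limit the passage of solutes between cells. Integrins are pairs of an alpha and a beta chain that bind matrix proteins such as collagen and laminin. In vertebrate genomes most CpGs are methylated, and low methylation within an intron often marks an active regulatory element.

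Methylation levels are the authors' means per age group, taken across the CpGs in a DMR and across 3 samples. Differences are in percentage points and negative where young adult EC had less methylation. No values per sample were analysed here, the coverage behind a single DMR is unknown, and the DMRs were chosen by a t-test on the same 6 samples. The differences below are therefore descriptions of selected regions, without an error of their own and without a test. In sorted bulk cells, a change of methylation within EC and a changed mixture of EC types cannot be told apart. Coordinates are those of GRCm38 (mm10), counted from 1, from the C of the first CpG to the G of the last CpG.

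The sequences of 9 DMRs are given first, to show the number and spacing of the CpGs in them. They are the largest loss of methylation of at most 300 bp in each gene that had one, followed by the largest gain at each gene that had one. The limit left out the largest loss of Cdh5, of 399 bp and 5 CpGs. Wider regions with more CpGs are not printed, such as the first DMR of Cd47 with 19 CpGs over 1487 bp. Each sequence is the plus strand of the reference from 5′ to 3′, and capitals mark its CpGs. Here and below, CpG numbers of a DMR are counts in the reference, and not all of these CpGs need have entered the authors' mean.
Cdh5, intron 1, loss, chr8:104110408-104110549: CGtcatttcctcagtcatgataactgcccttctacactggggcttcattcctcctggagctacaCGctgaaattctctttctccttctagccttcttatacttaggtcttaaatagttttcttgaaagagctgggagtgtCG
Pecam1, intron 12, loss, chr11:106680267-106680443: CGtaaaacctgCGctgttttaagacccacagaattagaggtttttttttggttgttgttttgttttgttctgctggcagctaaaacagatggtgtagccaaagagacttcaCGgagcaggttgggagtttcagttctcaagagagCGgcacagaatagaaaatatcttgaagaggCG
Tjp1, intron 4, loss, chr7:65341965-65342190: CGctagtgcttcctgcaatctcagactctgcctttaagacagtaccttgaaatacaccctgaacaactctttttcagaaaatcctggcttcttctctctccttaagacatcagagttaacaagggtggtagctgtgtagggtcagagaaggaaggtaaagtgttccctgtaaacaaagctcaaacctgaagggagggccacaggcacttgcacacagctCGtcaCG
Cd47, intron 3, loss, chr16:49869162-49869223: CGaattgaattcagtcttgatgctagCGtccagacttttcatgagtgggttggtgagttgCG
Itga1, intron 1, loss, chr13:115099443-115099538: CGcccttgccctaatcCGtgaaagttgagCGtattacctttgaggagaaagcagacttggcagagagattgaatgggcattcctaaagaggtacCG
Itgav, intron 1, loss, chr2:83729896-83729960: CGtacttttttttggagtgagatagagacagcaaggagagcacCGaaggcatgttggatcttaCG
Itga6, intron 1, gain, chr2:71811058-71811325: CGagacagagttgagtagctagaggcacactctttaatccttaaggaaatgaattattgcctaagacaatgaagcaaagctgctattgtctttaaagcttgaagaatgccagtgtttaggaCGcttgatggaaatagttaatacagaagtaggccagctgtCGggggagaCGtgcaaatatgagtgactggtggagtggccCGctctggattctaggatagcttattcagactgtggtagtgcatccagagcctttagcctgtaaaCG
Itga1, downstream flank, gain, chr13:114953201-114953467: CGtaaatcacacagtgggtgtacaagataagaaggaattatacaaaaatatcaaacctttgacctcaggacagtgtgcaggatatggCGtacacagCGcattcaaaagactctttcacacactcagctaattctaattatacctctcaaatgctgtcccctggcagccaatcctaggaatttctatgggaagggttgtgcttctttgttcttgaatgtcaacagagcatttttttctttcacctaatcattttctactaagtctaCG
Esam, downstream flank inside Vsig2, gain, chr9:37541398-37541446: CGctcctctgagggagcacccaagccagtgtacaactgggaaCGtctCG

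Methylation was lower in young adult than in infant EC in 53 of the 58 DMRs and higher in 5. The share of loss of methylation DMRs was thus 91.4% (95% Wilson interval 81.4 to 96.3, which treats neighbouring DMRs as independent). Of all listed DMRs, 45.9% lost methylation, and among the DMRs in or within 10 kb of any gene 53.9% did. At least 1 loss DMR was present at 6 of the 10 genes (Cdh5, Pecam1, Tjp1, Cd47, Itga1 and Itgav), against 12.0% of the 26,089 annotated genes. At least 1 gain DMR was present at 3 genes (Esam, Itga1 and Itga6), against 18.4% of all genes. Neither comparison was matched for gene length or CpG number. Cldn5 and Itgb1 had no DMR. The regions were unevenly shared, since Pecam1 had 17, Cdh5 15 and Itga1 12, together 44 of the 58. These were the 3 genes with more than 5 DMRs, a count that 2.34% of all genes reached, again without matching for gene length or CpG number. Without them, 71.4% of the remaining DMRs were losses. Of the 610 genes with more than 5 DMRs, 247 (40.5%) held losses alone, as Cdh5 and Pecam1 did.

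**Figure D1:**
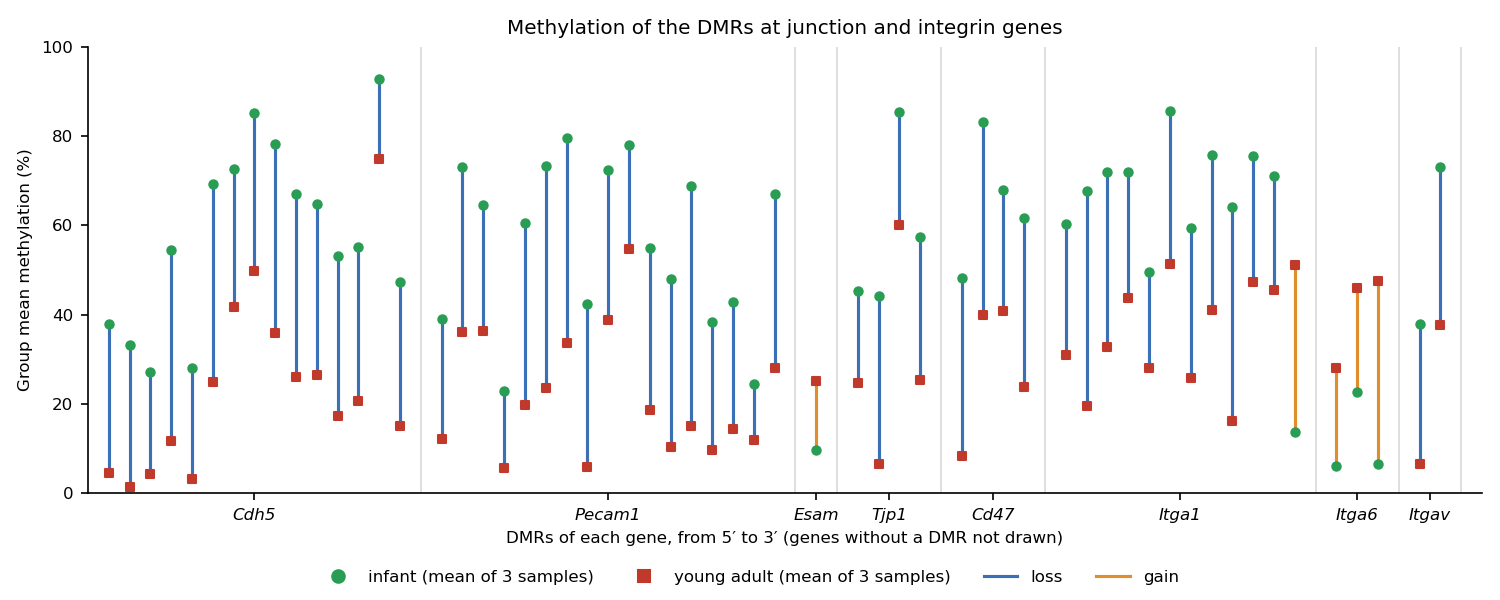
Group mean methylation (%, vertical axis) in infant EC (green circles) and young adult EC (red squares) for each of the 58 DMRs, ordered from 5′ to 3′ within each gene on the horizontal axis; lines join the 2 means of a DMR and are blue for loss and orange for gain. The square lies below the circle in all DMRs except the single DMR of Esam, the last one of Itga1 and the 3 of Itga6; the points are means without an error.

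Cdh5 (chr8:104101625-104144502, plus strand, 12 exons) lost methylation in 15 DMRs, all intronic, with a median difference of −34.5 points and a range of −44.4 to −18.0. In the genome-wide order by loss DMRs it had rank 71, and 79 genes, itself included, had at least as many. All 15 lay within 20.8 kb, the median gap between neighbours was 778 bp, and 7 of them were in intron 1. The 5 DMRs nearest to the transcription start site (TSS) of Cdh5 lay between 4.55 and 9.53 kb downstream of it. They already had low to intermediate infant means, from 27.2% to 54.5%. Their young adult means were between 1.37% and 11.6%, all under 20%. The next 6 DMRs, between 10.1 and 17.3 kb, started from 64.8% to 85.1% in infant EC and reached 24.9% to 49.8% in young adults, so that none fell under 20%. The difference itself was of similar size in both stretches, with a median of 31.8 points in the first and 39.7 points in the second. The young adult means of these 2 stretches did not overlap, and neither did the infant means. The last 4 DMRs, between 20 and 30 kb, ranged widely, with infant means of 47.4% to 92.9% (median 54.1%) and young adult means of 15.0% to 74.9% (median 18.9%), 2 of them under 20%. Levels thus did not keep rising with distance from the Cdh5 TSS.

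Single regions of Cdh5 illustrate these stretches. The second DMR of intron 1 (chr8:104107813-104108008, 5 CpGs) went from an infant mean of 33.2% to a young adult mean of 1.37%, the lowest mean of all 58 regions. The third (chr8:104108376-104109171) was wider, with 10 CpGs over 796 bp, and fell from 27.2% to 4.38%. Its CpG count was reached by 224 of the 8,422 loss DMRs (2.7%). The largest loss, from 69.3% to 24.9%, was in a DMR of 399 bp and 5 CpGs at the start of the second stretch (chr8:104111480-104111878). Further downstream in intron 2, a DMR of 3 CpGs within 25 bp kept the highest means of the 58, 92.9% before and 74.9% after the transition. The first DMR of the gene (chr8:104105942-104106417, 37.9% to 4.44%) was the single one of the 58 within 1 kb of any annotated TSS, 306 bp from the start of the non-coding gene Gm29682. This start lies within Cdh5, and it was the nearest annotated TSS for all DMRs of Cdh5. The fifth DMR, for example, was 5282 bp from it and 9530 bp from the Cdh5 TSS.

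Pecam1 (chr11:106654213-106715281, minus strand, 16 exons) had 17 loss DMRs and no gain, with a median difference of −36.2 points. There were 61 genes with at least as many. Of the 17, 14 were in introns, 1 in coding exon 8 and 2 in the flanks. The DMRs spanned 71.5 kb, from −8.25 kb relative to the TSS, where methylation went from 39.1% to 12.2%, to the downstream flank, where it went from 67.0% to 27.9%. Intron 2 held 7 of them in a stretch between 8.34 and 13.5 kb. Levels alternated along this stretch, as a DMR that went from 22.8% to 5.69% stood next to others that went from 64.5% to 36.3% and from 60.5% to 19.7%. Losses of 49.8 points (73.4% to 23.6%, chr11:106703320-106703355) and 45.9 points (79.5% to 33.6%, chr11:106702453-106702608) followed in the same intron.

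The largest loss among the 58 DMRs was in intron 12 of Pecam1 (chr11:106680267-106680443, 5 CpGs), where the infant mean was 68.7% and the young adult mean 15.1%. The difference was −53.6 points, and 153 of the 8,422 listed loss DMRs (1.82%) were larger. The sequence of this region is the second one given above. A neighbour 190 bp away fell from 38.4% to 9.70%. The DMR in coding exon 8 (chr11:106684984-106685155, 6 CpGs) went from 48.0% to 10.4%. All 5 DMRs between 30 and 60 kb from the TSS reached young adult means of 9.70% to 15.1%, while the 3 DMRs with the highest young adult means (36.3% to 54.7%, 1 in intron 2 and 2 in intron 3) lay closer to it. The smallest loss, in intron 15, went from 24.4% to 11.9%. Of the 17 DMRs of Pecam1, 10 had young adult means under 20%, and of the 15 of Cdh5, 7 did.

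**Figure D2:**
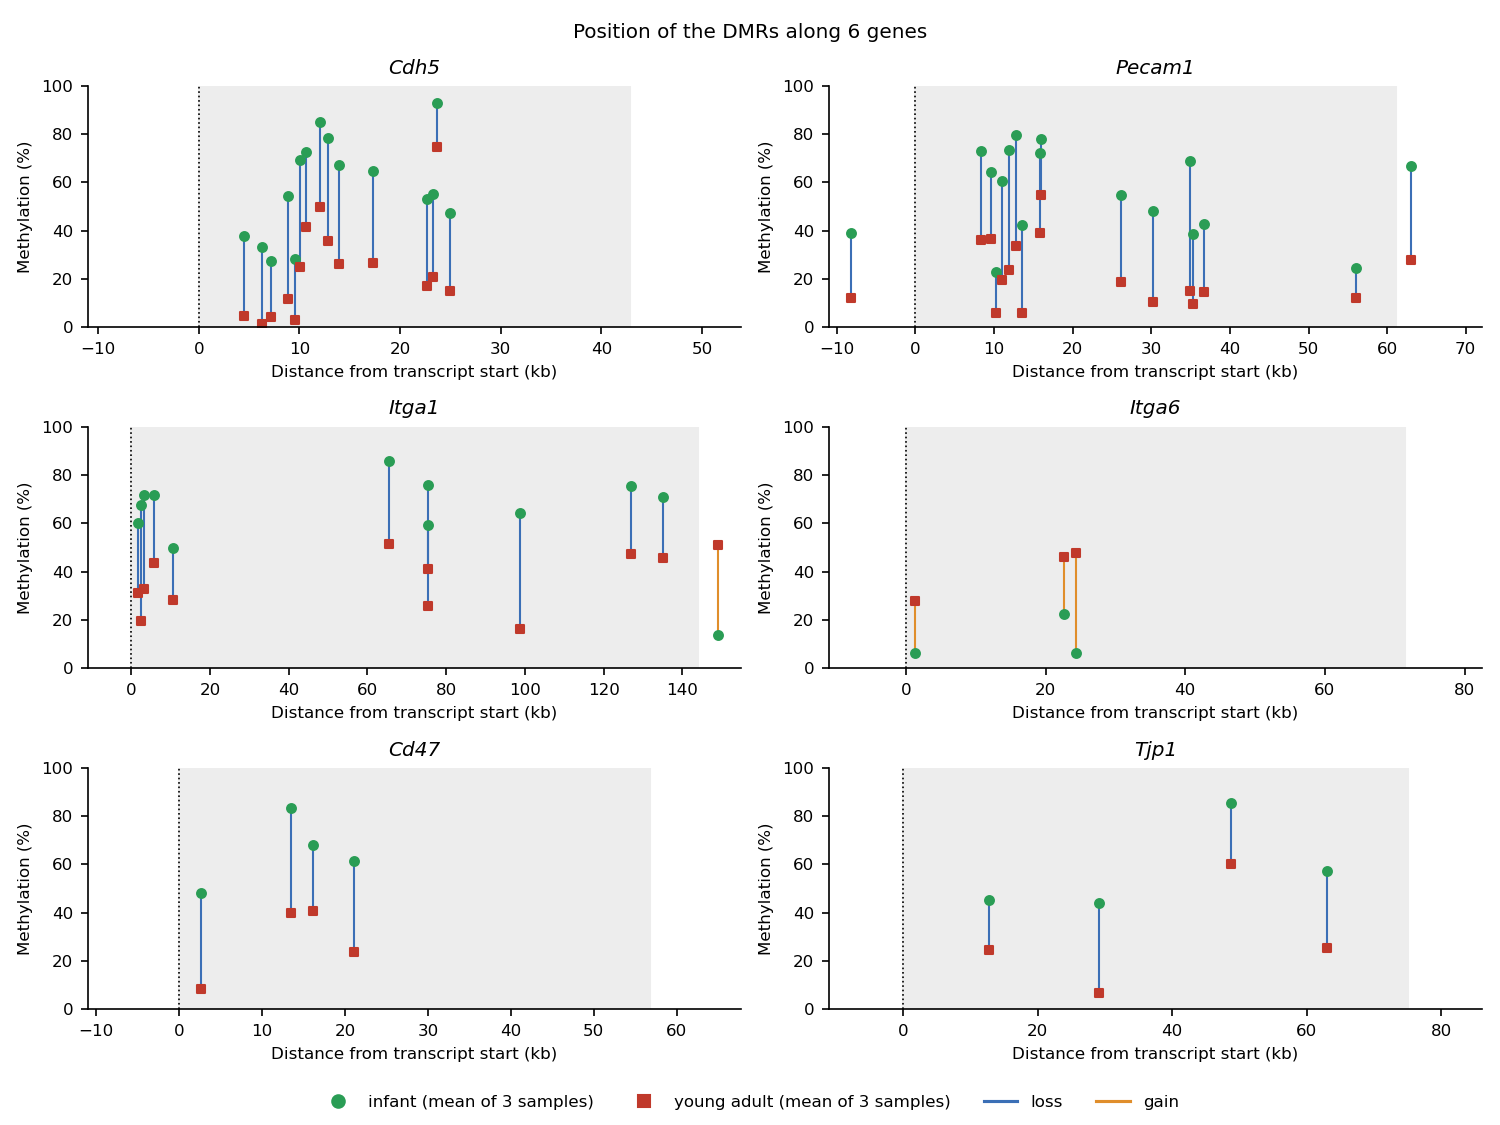
Group mean methylation (%, vertical axes) against the distance of the DMR midpoint from the TSS (kb, horizontal axes) for the 6 genes with at least 3 DMRs, in infant (green circles) and young adult EC (red squares); the grey area is the gene from its start (dotted line) to its end. The first 5 DMRs of Cdh5 end between 1.37% and 11.6%, and the gains (orange lines) are the 3 of Itga6 and the one beyond the end of Itga1.

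Tjp1 (chr7:65296165-65371244, minus strand, 28 exons) codes for the scaffold protein that couples tight junction proteins to the actin cytoskeleton. Its 4 DMRs, all losses of 3 CpGs each, were spread over the gene with a median difference of −28.6 points. Methylation in intron 4 fell from 44.2% to 6.54%, the largest loss of the gene. The other 3 went from 45.3% to 24.7% in intron 1, from 85.4% to 60.1% in coding exon 14 and from 57.5% to 25.4% in intron 23. One further loss DMR, from 50.8% to 14.4%, lay 14.5 kb upstream of the gene and was the nearest region left out by the 10 kb limit, whereas the farthest upstream region inside it was that of Pecam1 at −8.25 kb.

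Cldn5 (chr16:18776847-18778262, plus strand) is a gene of a single exon that codes for the main claudin of endothelial tight junctions, and none of the 252 CpGs of the gene and its flanks lay in a DMR. A pair of DMRs upstream, outside the 10 kb, named Cldn5 as nearest promoter in the authors' list and had opposite directions. The one 21.1 kb away (chr16:18755764-18755822, 7 CpGs) fell from 87.3% to 44.2%, and the one 24.8 kb away (chr16:18751984-18752138, 5 CpGs) rose from 7.63% to 28.1%. Esam (chr9:37528089-37538319, plus strand), which codes for an adhesion molecule of tight junctions, had a single DMR, a gain from 9.56% to 25.1%. This region was downstream of Esam and inside Vsig2, which was also its nearest promoter in the authors' list, so the assignment to Esam rests on the flank alone.

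Cd47 (chr16:49855654-49912428, plus strand, 12 exons) codes for a receptor of thrombospondins that also associates with integrins and is the ligand of SIRPα on phagocytes. It had 4 loss DMRs, all intronic, with a median difference of −38.9 points. The first, in intron 1, 2.64 kb from the TSS (chr16:49857554-49859040), was the widest of the 58, with 19 CpGs over 1487 bp. Its mean fell from 48.2% to 8.31%, and 19 of all loss DMRs (0.23%), itself included, held as many CpGs. The 3 DMRs of intron 3 started higher and stayed higher. They went from 83.2% to 39.9%, from 67.9% to 40.8% and from 61.6% to 23.7%. The first of these, with 3 CpGs in 62 bp, was the largest loss of the gene and is the fourth sequence above.

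Itga1 (chr13:114958079-115101964, minus strand, 29 exons) codes for the alpha 1 chain of a collagen-binding integrin and had 11 loss DMRs and 1 gain. The losses were all intronic, had a median difference of −33.6 points and a range of −48.3 to −21.5, and 146 genes had at least as many. Intron 1 held 5 of them, 4 within 10 kb of the TSS. The largest loss was at 2.47 kb (chr13:115099443-115099538, 4 CpGs), from 67.8% to 19.5%, and the DMRs on either side of it fell from 60.4% to 31.0% and from 72.0% to 32.7%. A loss of nearly the same size, from 64.2% to 16.3%, was in intron 9, 98.7 kb from the TSS. Infant means of the 11 losses were between 49.6% and 85.8% with a median of 71.2%, and young adult means had a median of 32.7%, against 20.7% for Cdh5 and 18.6% for Pecam1. Young adult means under 20% were found in 2 of the 11.

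The gain DMR of Itga1 lay beyond its 3′ end, towards Itga2, the alpha 2 chain of another collagen-binding integrin. Methylation there (chr13:114953201-114953467, 4 CpGs) rose from 13.6% to 51.1%, and 214 of the 9,911 gain DMRs (2.16%) were larger. In the authors' list the nearest promoter was Itga2 for this and 3 intronic losses of Itga1, and Pelo, which lies within Itga1, for another 4. Over all 58 DMRs the nearest promoter in that list belonged to the gene they are counted for in 47. By the RefSeq transcripts used here there were fewer, since the nearest TSS of all Cdh5 DMRs was that of Gm29682.

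Itgav (chr2:83724397-83806917, plus strand, 30 exons), the alpha chain of vitronectin and fibronectin receptors, had 2 loss DMRs separated by 50 bp in intron 1, 5.37 and 5.53 kb from the TSS. The first fell from 37.9% to 6.62% and the second from 73.0% to 37.7%. Their levels differed in both age groups although their differences of −31.3 and −35.3 points were close. No further DMR was listed within 50 kb of the gene. Itgb1 (chr8:128685654-128733579, plus strand), the beta 1 chain that pairs with the alpha 1, alpha 6 and alpha v chains, had no DMR among the 458 CpGs of the gene and its flanks, and the nearest one lay 125174 bp away.

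Itga6 (chr2:71786939-71858427, plus strand, 26 exons), the alpha chain of laminin-binding integrins, was the one gene of the 10 with several gains and no loss. Its 3 DMRs were all in intron 1. The first, 1.34 kb from the TSS (chr2:71788025-71788528), had 10 CpGs and rose from 6.15% to 27.9%. Of the 9,911 gain DMRs, 36 (0.36%) held at least as many CpGs. The second (chr2:71809455-71809628, 4 CpGs), 22.6 kb from the TSS, rose from 22.6% to 46.0%. The third (chr2:71811058-71811325, 6 CpGs), at 24.3 kb, rose from 6.41% to 47.6%, and 71 listed gains (0.716%) were larger than its 41.2 points. Gains alone, at least 3 of them, were found at 508 of the 26,089 annotated genes. The direction extended upstream, where 6 DMRs between 27.8 and 48.1 kb from the gene were gains as well. Their infant means were between 9.69% and 50.8% and their young adult means between 37.1% and 71.4%, and the nearest promoter in the authors' list was Itga6 for 1 of them and Platr26 for 5.

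**Figure D3:**
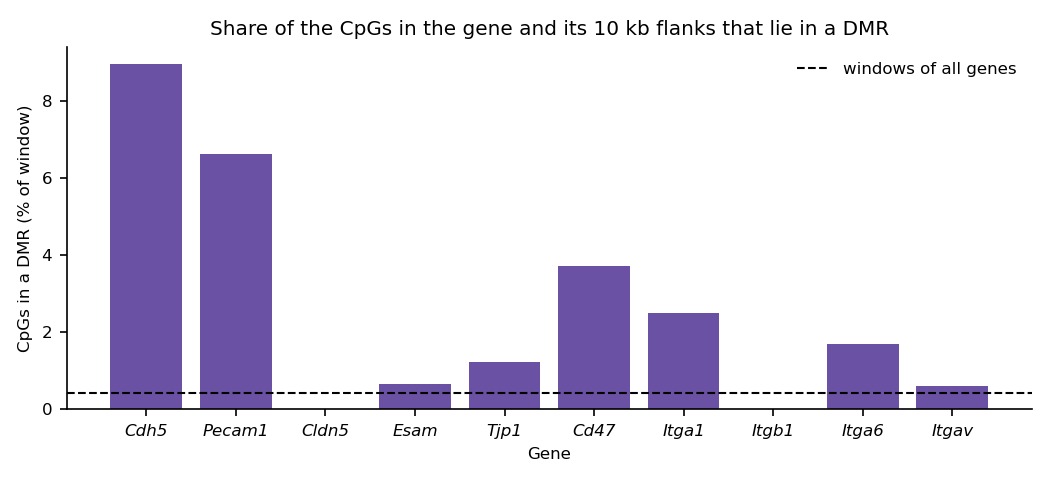
Share of the CpGs in each gene and its 10 kb flanks that lay inside a DMR (%, vertical axis) for the 10 genes (horizontal axis), with the share over the windows of all genes as a dashed line at 0.417%. Cdh5 (8.96%) and Pecam1 (6.62%) stand highest, and Cldn5 and Itgb1 are at 0.

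Since genes differ in length and CpG number, the DMR counts were also set against the CpGs available. In Cdh5, 64 of 714 CpGs in the gene and its flanks were in a DMR (8.96%), and in Pecam1 69 of 1043 (6.62%). Cd47 followed with 3.73%, Itga1 with 2.5%, Itga6 with 1.68% and Tjp1 with 1.22%, while Esam (0.647%) and Itgav (0.599%) were closest to the 0.417% of all gene windows. Over the 10 genes, 248 of 8797 CpGs were in a DMR (2.82%). By this measure Cdh5 preceded Pecam1, and Cd47 with 4 DMRs preceded Itga1 with 12, because of the 1487 bp region in its intron 1. How many of the CpGs outside the DMRs had the coverage needed for a call is not known from the list.

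The 53 losses resembled the listed losses in size. Their median difference was −34.4 points, against −32.4 for all 8,422. The 95% interval of the member median over DMRs, −37.0 to −30.9, treats neighbouring DMRs as independent and is no test. The infant medians were 64.2% and 61.5%, and the young adult medians 24.9% and 25.4%. Young adult means under 20% occurred in 22 of the 53 (41.5%), against 38.1% of all losses. The number of CpGs per DMR was alike too, with a mean of 4.17 in both sets, and 28 of the 53 (52.8%) held the minimum of 3, against 52.5%.

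The sets differed more in position and base composition, as descriptions without a test. Since the rule admits regions near genes alone, the values are set beside the 7570 losses in or within 10 kb of any gene. Introns held 92.5% of the 53 losses against 84.5% of these, and 16 of the 49 intronic ones were in intron 1. None of the 58 DMRs had its midpoint within 1 kb of a TSS of its own gene, and 16 were within 10 kb. For the counts in intron 1 and near the TSS, no share over all listed DMRs was computed. The paper reports that DMRs genome-wide were depleted at the TSS and enriched in introns, mainly the first ones. These counts are thus not shown to be particular to the 10 genes. The median GC content was 46.8% against 50.5%. Repeat-masked bases were absent from 20 of the 53 (37.7%) against 54.9%, and their median width was 160 bp against 132 bp.

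The 5 gains differed in starting level from the listed gains. They began at 6.15% to 22.6% in infant EC, with a median of 9.56%, whereas the median was 54.8% over all 9,911 gains and 51.5% over the 6477 in or within 10 kb of any gene. Infant means under 10% occurred in 3 of the 5, against 6.29% of all gains. Young adult means ended between 25.1% and 51.1% with a median of 46.0%, against 78.1%. The median difference of 23.4 points was close to the 20.4 points of all gains.

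Letters of transcription factor motifs were counted on both strands in windows of 200 bp at the DMR midpoints, and no searched string contained another. The ETS core AGGAAG was present in 13 of the 53 loss windows (24.5%, against 29.4% of all loss windows), and the GATA letters AGATAA in 8 (15.1%, against 13.8%). TEAD (GGAATG) was found in 8 (15.1%, against 11.2%), AP-1 (TGANTCA) in 4 (7.55%, against 6.83%) and forkhead (TGTTTAC) in 2 (3.77%, against 5.89%). SOX (ACAAAG) occurred in 6 (11.3%, against 17.1%), KLF (CACCC) in 17 (32.1%, against 41.1%) and SMAD (CAGAC) in 23 (43.4%, against 42.5%). For these strings the shares were thus within 10 points of those over all losses. Of the 5 gain windows, 3 held the SMAD letters (against 40.7% of all gain windows) and 2 the SOX letters (against 17.2%). The GATA, TEAD and KLF letters were in 1 each (against 9.96%, 12.1% and 36.1%), and the ETS, forkhead and AP-1 letters in 0 (against 27.9%, 3.04% and 6.25%). With 5 windows, no share can be read from these counts. A match shows the letters and not a bound site.

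Partners and relatives of these genes were counted by the same rule. Of all 26,089 genes, 12.0% had a loss, 18.4% a gain and 2.34% more than 5 DMRs. Losses were 45.9% of all listed DMRs and 53.9% of those in or within 10 kb of any gene. The lists below were not matched to all genes for length or CpG number, and no difference from these shares was tested. Of 15 other adherens and nectin junction genes, 14 had a DMR, 10 a loss and 8 a gain, and 73.5% of their 68 DMRs were losses. Catenins that bind cadherins were among them, with 10 losses and no gain at Jup (γ-catenin, median −40.0 points), 8 losses at Ctnnd1 (p120, median −37.2) and 2 at Ctnnb1 (β-catenin, median −27.6). Ptprm, a receptor phosphatase of cell contacts, had 16 losses and 2 gains over 688 kb. Cdh13, an atypical cadherin without a cytoplasmic tail, had 5 gains and no loss. The catenin gene Ctnna1 had 2 losses, whereas the catenin-like gene Ctnnal1 and the cadherin gene Cdh2 had 1 gain each and no loss. Without Ptprm, 68.0% of the DMRs of the list were losses.

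Of 17 other tight junction and polarity genes, 6 had a loss, 4 a gain and 10 no DMR. The polarity genes Pard6g and Pard3 had 13 losses with 1 gain and 4 losses with 3 gains, respectively. Losses made up 76.7% of the 30 DMRs of the list and 62.5% without Pard6g. Cgnl1 (paracingulin) had 2 losses and no gain (median −24.2 points). The junctional adhesion molecule genes F11r and Jam3 went in opposite directions, with 2 losses and 2 gains. None of the 3 other claudin genes of the list had a DMR, as was the case for Cldn5.

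Among 22 other integrin subunits, 5 had a loss, 7 a gain and 12 no DMR, and 71.0% of 31 DMRs were losses. Itga3, like Itga6 the alpha chain of laminin-binding integrins, had 14 losses and no gain in a gene of 32.3 kb (median −35.4 points). Without it, 8 of 17 DMRs of the list (47.1%) were losses, which is near the 45.9% of all listed DMRs and under the 53.9% of those near any gene. The beta chain gene Itgb5 had 3 losses and 1 gain, and Itga2 had 3 losses. Gains without a loss were found at Itga9 (3), Itga11, Itgb2, Itgb3 and Itgb4 (1 each). The number of DMRs per gene therefore ranged from 0 to 14 within the integrin family.

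Of 22 integrin adaptor and signalling genes, 8 had more than 5 DMRs, against 2.34% of all genes without matching for length. Losses were 77.5% of the 80 DMRs of the list (73.1% without Rap1b). The small GTPase genes Rap1b and Rap1a, which act on integrin activation and on endothelial junctions, had 13 losses (median −39.9 points) and 9 losses (median −35.6) and no gain. Fermt2 (kindlin-2) had 6 losses and Tln2 (talin-2) 6 gains, although both proteins bind the tails of integrin beta chains. Parvb had 9 losses and 1 gain, Lims2 and Pxn 7 losses each, and Rasip1, an effector of RAP1 in EC, 4 losses and 2 gains. The Cd47 partners had few DMRs, with 1 loss and 1 gain at Sirpa, 1 gain at Thbs1 and none at Thbs2.

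Of 13 gap junction and other endothelial adhesion genes, 5 had a loss and 3 a gain, and 90.6% of their 32 DMRs were losses. Podxl (podocalyxin), a sialomucin of the luminal EC surface, held most of these with 21 losses and 1 gain and a median loss of −34.4 points. Without it, 8 of 10 DMRs were losses (80.0%). Icam2, an adhesion receptor of EC junctions, had 4 losses (median −36.3) and the connexin gene Gja4 2. Over all 6 lists, the share of losses ranged from 33.3% (3 DMRs of the Cd47 partners) to 90.6%.

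**Figure D4:**
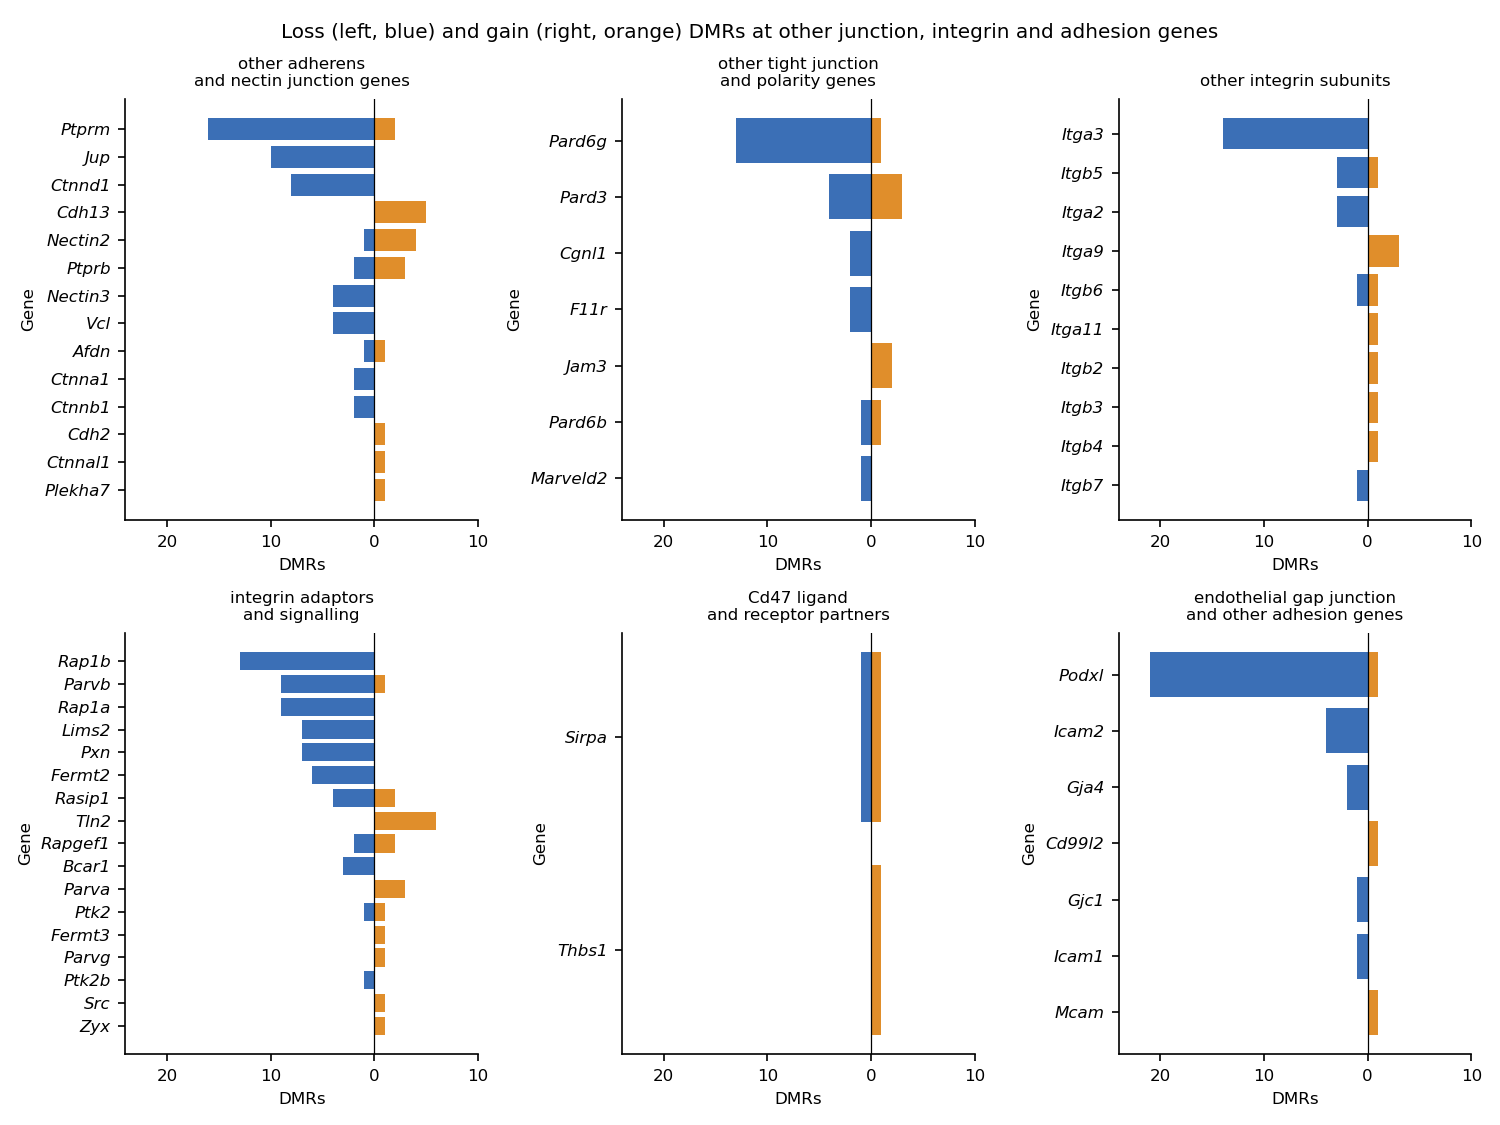
Number of loss DMRs (blue, to the left of 0) and gain DMRs (orange, to the right) in or within 10 kb of each gene (vertical axes) of 6 lists of related genes; genes without a DMR are not drawn. Losses alone stand at Jup, Ctnnd1, Itga3, Rap1a and Rap1b, and gains alone at Cdh13, Itga9 and Tln2.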

How the data were processed

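T-WGBS was applied to 30 ng of DNA of each of the 6 samples, with 3 libraries per sample. Per the labels, bcl2fastq 1.8.4, BWA 0.6.1 and R 3.2.2 were used. The authors trimmed adaptors with SeqPrep, aligned to mm10, removed duplicates with Picard and called DMRs with bsseq without smoothing. CpGs needed 8-fold coverage in at least 2 of 3 samples of a group, and a DMR needed at least 3 consecutive CpGs, each with a t-test p below 0.05, and group means at least 10% apart. The deposited list gives the mean methylation of each age group as a fraction, which was multiplied to percent. Its first and last positions were CpGs of the GRCm38.p6 reference in 18,333 of 18,333 DMRs, and the stated direction matched the sign in each.

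Each DMR was placed by its midpoint on 45,657 curated RefSeq transcripts of 26,089 genes, with Python 3.11.15, pandas 2.3.3, numpy 2.4.6 and scipy 1.17.1. Intron numbers are those of the curated transcript with the longest span, and distances are from its 5′ end. The counting was tested on simulated regions. Samples were grouped by age, and only pooled group means were analysed here, so the planned permutation test over samples was not run. Depth per DMR is unknown, so precision cannot be given. Intervals printed cover the number of DMRs alone.

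The members and lists were chosen with earlier results of these data known, and 1 gene of a list is not reported here. All 10 members were described, and of each list the genes with more than 5 DMRs and at least the 3 with most DMRs. Single regions named were the largest loss and gain of each member and those within 1 kb of a TSS. Sequences were fixed for Cdh5, Pecam1, Itga1 and Cd47. Other regions, other named genes and the sequences of Tjp1, Itgav, Itga6, Esam and the Itga1 gain were chosen after their values were seen. Alternatives were no or 50 kb flanks, any overlap, predicted transcripts, a 20% difference, 5 CpGs, merging within 500 bp, equal weight per gene, and omission of Pecam1. Marker counts over 9 endothelial, 5 leukocyte, 2 erythroid, 4 lymphatic, 5 epithelial and 4 mesenchymal genes are given in the closing section.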

Additional observations from a re-analysis of the deposited data

How the results depend on the processing

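The share of losses moved from 91.4% to 79.45% with flanks of 50 kb, where 10 of the 15 added DMRs were gains and 6 of these belonged to Itga6, and to 74.0% as the mean of the share per gene. Without Cdh5, Pecam1 and Itga1, an alternative chosen after seeing the data, it was 71.4%. With at least 5 CpGs per DMR, 16 of the 58 DMRs were left and the median loss was −37.1 points, and Cdh5 kept 6 DMRs, Pecam1 5, Cd47 2, Itga6 2 and Itga1 1, while Tjp1, Itgav and Esam had none. With the gene body alone, any overlap, at least 20% difference or merging within 500 bp, the total count stayed within 1.5 times, the losses remained the majority and the median loss moved by less than the spread of the DMRs. For single genes, Esam lost its DMR with the gene body alone and with at least 20% difference, and the 2 DMRs of Itgav merged to 1. Predicted transcripts were tried for the total count alone (61), and the omission of Pecam1 for the median loss alone (−34.0 points). The number of DMRs was 48 when merged. The omission of the gene with most losses from each related list and the comparison with regions near any gene were added after seeing the data.

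No paired analysis was possible because the list holds group means and no values per sample. The replicate block and the omission of single replicates were not run for the same reason. The counting of a region depends on coverage and on a threshold per CpG, and a gene without a DMR is not shown to be without a difference.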

Other observations

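Marker genes of EC and of other lung cells were counted by the same rule. Of 9 endothelial marker genes, 7 had a DMR, with 39 losses and 1 gain. Cdh5, Pecam1 and Esam, described above, held 32 of these losses and the gain, Kdr had 4 losses, Tek, Emcn and Egfl7 1 loss each, and Cldn5 and Cd34 none. Of 5 leukocyte genes, Spi1 and Itgb2 had 1 gain each, and neither of the 2 erythroid genes had a DMR. Of 4 lymphatic genes, Lyve1 and Flt4 had 1 loss each, of 5 epithelial genes Cdh1 had 1 loss, and of 4 mesenchymal genes Acta2 had 1 gain. Over these 20 genes of other cells, 15.0% had a loss and 15.0% a gain, near the 12.0% and 18.4% of all genes.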
